A study of Mus musculus with 12 samples.

Results

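Mouse KP lung adenocarcinoma cells with and without BACH1 were compared under control siRNA, gene by gene. The comparison takes 6 of the 12 libraries of the study, 3 of control cells and 3 of BACH1 knockout cells, and covers the 13312 of 24421 genes with at least 10 counts in at least 3 of the 12 libraries. Both groups are KP cells, whose labelled genotype includes Trp53flox/flox, conditional alleles of Trp53; the labels do not give the state of recombination. Control cells (sgCTRL_siCTRL) carried a control guide RNA and knockout cells (sgBACH1_siCTRL) a guide RNA against Bach1, used with Cas9. Both received the same control siRNA for 48 h, in DMEM with fetal bovine serum, and poly(A) RNA was sequenced from stranded libraries. The other 6 libraries are of the same cells given siRNA against Fem1b, which encodes a substrate receptor of a ubiquitin ligase. The study's question was what losing BACH1 or FEM1B does to the expression of ferroptosis genes; ferroptosis is cell death driven by iron and lipid peroxidation. The design text calls the libraries of a group biological replicates, but 1 control line and 1 knockout line are named, so that effects of BACH1 loss and other differences between these lines cannot be told apart.

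BACH1 is a transcription factor that pairs with small MAF proteins and represses genes with antioxidant response or MAF elements, among them the heme oxygenase gene Hmox1. Heme binds BACH1, releases it from DNA and leads to its degradation, so that heme-handling and antioxidant genes are freed when heme is plentiful. NRF2, encoded by Nfe2l2, pairs with the same small MAF proteins and activates many of the same genes. In lung adenocarcinoma BACH1 is known for its part in metastasis.

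Several of the genes below carry short motifs of the factors concerned close to their start, and these stretches show which letters are meant. Windows from 250 bases before to 50 bases after the start were taken from RefSeq on GRCm38.p6 (mm10) and searched on both strands. The core of an interferon-stimulated response element, which IRF factors bind, was searched as GAAA, any 2 bases and GAAA. It was found in 19 of the 35 interferon-stimulated genes that had a window (54.3%), against 3.99% of 27025 genes in the promoter table. Of the 389 genes with a window that were called at least 2-fold lower, 40 held it (10.3%), and of the 522 called at least 2-fold higher, 13 did (2.49%). The following 5 are examples, chosen after their values were seen, of the genes with at least 2 matches before the start; capitals mark the matches and the strand is that of the gene.
Ifit1 (chr19:34640765-34640833, plus strand): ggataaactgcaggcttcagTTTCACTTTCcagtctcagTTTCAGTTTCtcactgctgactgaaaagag
Isg15 (chr4:156200855-156200916, minus strand): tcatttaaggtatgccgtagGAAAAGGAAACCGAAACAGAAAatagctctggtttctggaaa
Gbp3 (chr3:142559979-142560034, plus strand): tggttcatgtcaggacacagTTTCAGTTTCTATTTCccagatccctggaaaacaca
Bst2 (chr8:71537567-71537622, minus strand): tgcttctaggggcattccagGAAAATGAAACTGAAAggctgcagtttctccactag
Ddx60 (chr8:61928014-61928086, plus strand): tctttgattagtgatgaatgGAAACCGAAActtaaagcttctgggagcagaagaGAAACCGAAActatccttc
All 5 genes fell in knockout cells. TGACNNNGC, the core of an antioxidant response or MAF element, was found in 5 of 12 genes described as repressed by BACH1 (41.7%) and in 9 of 26 NRF2 targets (34.6%), against 14.0% of all genes in the table. Over all genes tested it was found in 16% of those called higher, 17.5% of those called lower and 17.1% of those not called. The next 3 stretches are shown because their genes share this core but did not move in 1 direction: Gclm rose, while Prdx1 and Txnrd1 fell.
Gclm (chr3:122245403-122245451, plus strand): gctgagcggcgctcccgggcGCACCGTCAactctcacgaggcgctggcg
Prdx1 (chr4:116685446-116685494, plus strand): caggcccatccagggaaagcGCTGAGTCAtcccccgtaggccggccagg
Txnrd1 (chr10:82859094-82859142, plus strand): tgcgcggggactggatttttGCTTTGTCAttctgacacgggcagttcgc
A match is a description of the letters, not evidence of a bound site.

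Expression differed widely between the cells. With edgeR's quasi-likelihood test and Benjamini-Hochberg adjustment over all 13312 genes, 6708 genes were called at an adjusted p under 0.05, or 50.4%, of which 3219 were higher (24.2%) and 3489 lower (26.2%) in knockout cells. Most differences were small: 4014 of the called genes, or 59.8%, had an absolute log2 fold change under 0.5. At least 2-fold changes were called in 715 genes higher (5.37%) and 537 lower (4.03%), and at least 8-fold changes in 258 and 114. Over all genes the median was −0.02 on the log2 scale. These shares are the background for every count below. For 60.2% of all genes every library of one group was above every library of the other, 28.7% higher and 31.5% lower in knockout cells. Lack of overlap was thus common and does not by itself set a named gene apart. Levels are given as CPM, counts scaled to library size, in replicates 1, 2 and 3, fold changes as knockout against control on the log2 scale with their standard error, and n is 3 per group throughout.

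Libraries of the 2 groups were alike in depth, at 19885927 to 21863058 counts in control cells and 19189574 to 21719512 in knockout cells. In a principal component analysis of log2 CPM over all 12 libraries, the component with 64.5% of the variance separated the genotypes and the next, with 20.6%, the siRNAs, and each library lay with its group on both. On the third component replicate 2 of the knockout group was at −3.78, against −10.7 and −10.6 for the other two, and replicate 2 of the knockout group given Fem1b siRNA was at −3.4, with the other two above 0. Alveolar and airway markers were in part missing from both groups: 8 of 20 had no count in each, among them Nkx2-1, Sftpc, Sftpa1 and Sftpd, and the list summed to 300.2 to 323 CPM in control and 279 to 290 CPM in knockout cells. Of 11 leukocyte markers 7 were at 0 in control and 8 in knockout cells (Cd3e and Itgam among them in both), with sums of 7.54 to 9.74 and 5.29 to 6.10 CPM. Of 11 fibroblast markers 3 and 6 were at 0, with sums of 23.3 to 25.2 and 8.63 to 10.7 CPM, and of 10 endothelial markers 4 and 5, with sums of 2.06 to 2.82 and 2.20 to 3.05 CPM. In bulk RNA, fewer cells of a type and less RNA per cell cannot be told apart, and the part of the fibroblast markers in the results below was not tested. Whole chromosomes also differed in level between the cells, with medians from −0.28 on chromosome 12 to 0.44 on chromosome 19, where 344 of 495 genes were higher; named genes whose call depends on this are marked where they occur.

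The targeted gene was looked at first. Bach1 (chromosome 16, 87698954 to 87733346) was at 29.5, 33.6 and 31 CPM in control cells and 31, 27.6 and 29.7 CPM in knockout cells. These values overlap, and Bach1 was not called (−0.09 ± 0.08, adjusted p = 0.348). A Cas9 lesion need not lower the transcript it lies in, so this says nothing about the protein. Trp53, a gene of the labelled genotype, did not pass the test (0.28 ± 0.16, adjusted p = 0.158).

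Among the partners, relatives and regulators of BACH1 tested, only Bach2 and Nfe2l3 were called with a change of at least 2-fold. Of 10 BACH, NRF and small MAF factors with Keap1 that were tested, 3 were higher and 3 lower (30.0% each, against 24.2% and 26.2% of all genes). Bach2, the lymphoid relative of Bach1, was at 0.545, 0.80 and 0.601 CPM in control and 2.68, 2.0 and 2.73 CPM in knockout cells and rose by 1.92 ± 0.31 (adjusted p = 3.85e-05), from a level under 1 CPM. Nfe2l3, an NRF2 relative, rose from 10.5, 13.2 and 10.5 to 49.1, 49.1 and 50.1 CPM (2.12 ± 0.10, adjusted p = 6.56e-13), with no overlap. Of the genes of the small MAF partners, Mafk fell by 0.41 ± 0.10 (adjusted p = 0.00204) and Mafg by 0.31 ± 0.09 (adjusted p = 0.00976), and Maff was not called (−0.12 ± 0.08, adjusted p = 0.225); the call of Mafg ended without replicate 2 of the control or replicate 3 of the knockout group. Nfe2l2, at 116, 116 and 115 CPM in control and 105, 114 and 113 CPM in knockout cells, was not called (−0.06 ± 0.06, adjusted p = 0.384). Keap1, the gene of the adaptor that marks NRF2 for degradation, was not called either (0.09 ± 0.07, adjusted p = 0.299), although it was called lower once chromosome medians were removed. Cul3, the gene of the ligase scaffold KEAP1 works with, rose by 0.30 ± 0.05 (adjusted p = 3.86e-05). Of 12 subunits of ligases described for BACH1 turnover, 2 were higher (16.7%) and 4 lower (33.3%), none of them by 2-fold.

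Hmox1 stood apart among the genes described as repressed by BACH1. The gene (chromosome 8, 75093618 to 75100593) encodes the enzyme that opens the heme ring and releases iron. Its level was 242, 258 and 203 CPM in control cells and 1107, 1080.2 and 1092 CPM in knockout cells. Every knockout library was far above every control library, and the difference was 4.66-fold (2.22 ± 0.16, adjusted p = 6.0e-10). Of the 18 listed genes only 2 more rose, Gclm and Me1 (whose call ended with chromosome medians removed), while 10 fell and 5 were not called; the list's median was −0.22, and −0.31 with chromosome medians removed.

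The glutathione and thioredoxin genes of this list went different ways. Gclm, the modifier subunit of the first enzyme of glutathione synthesis, was at 80.4, 84.5 and 84.4 CPM in control and 116, 108 and 115 CPM in knockout cells and rose by 0.44 ± 0.06 (adjusted p = 7.88e-06). Its catalytic partner Gclc was at 54.4, 61.8 and 58.5 and 59.5, 56.3 and 55.4 CPM and was not called (−0.03 ± 0.06, adjusted p = 0.719), but was called lower with chromosome medians removed. The subunits of the same enzyme thus had different calls; the difference between them was not tested. Slc7a11, the cystine transporter chain, was at 150.0, 171 and 172 CPM in control and 182, 184 and 167 CPM in knockout cells. The groups overlap, and the gene was not called (0.11 ± 0.19, adjusted p = 0.647), though a fit to the 6 libraries alone called it. Srxn1, which repairs oxidised peroxiredoxins, fell from 109, 94.3 and 105 to 63.5, 61.4 and 66.1 CPM (−0.69 ± 0.06, adjusted p = 1.28e-08). Txnrd1, thioredoxin reductase, was at 145, 142 and 137 CPM in control and 122, 119 and 122 CPM in knockout cells and fell by 0.23 ± 0.05 (adjusted p = 0.000809). Prdx1, a peroxiredoxin, fell by 0.21 ± 0.05 (adjusted p = 0.00384). These 3 genes encode enzymes of the thioredoxin branch, and none of their replicates overlapped between groups.

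Larger falls were found in other antioxidant genes. Osgin1, a growth inhibitor induced by oxidative stress, was at 171, 140.5 and 150.2 CPM in control and 49.9, 56.1 and 49.7 CPM in knockout cells (−1.57 ± 0.07, adjusted p = 4.22e-13). Nqo1, the quinone reductase often used as an NRF2 readout, was low in both, at 2.73, 3.44 and 3.46 and 1.1, 1.35 and 0.601 CPM, and fell by 1.66 ± 0.28 (adjusted p = 5.64e-05). Mgst1, a membrane-bound glutathione transferase and peroxidase, fell from 64.9, 62.7 and 61.6 to 6.26, 8.13 and 6.33 CPM (−3.19 ± 0.10, adjusted p = 1.26e-15). In each of the 3 genes all knockout libraries lay below all control libraries. Aldh3a1, an aldehyde dehydrogenase, fell by 0.91 ± 0.11 (adjusted p = 5.39e-07), and the glutathione reductase gene Gsr by 0.53 ± 0.06 (adjusted p = 1.21e-07). In the other direction Cbr1, a carbonyl reductase, rose from 0.273, 0.282 and 0.20 to 1.26, 1.4 and 1.06 CPM (adjusted p = 0.000138). Of 33 NRF2 targets tested, 8 rose (24.2%) and 15 fell (45.5%), against 24.2% and 26.2% of all genes, with a median of −0.17. With Fem1b siRNA 16 rose and 10 fell, with a median of 0.13. The difference between the siRNAs was not tested for the list. This list shares members with the list of BACH1-repressed genes.

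Glutathione transferase genes went both ways. Of 16 tested, 4 rose (25.0%) and 6 fell (37.5%), against 24.2% and 26.2% of all genes. With Fem1b siRNA 9 rose and 1 fell. Of the genes that rose, 3 had few or no counts in control cells: Gstt1 was at 0.227, 0.329 and 0.601 CPM in control and 4.31, 6.74 and 3.74 CPM in knockout cells (3.67 ± 0.33, adjusted p = 1.2e-08), and Gstt3 at 0.136, 0.329 and 0.902 and 3.16, 4.14 and 3.23 CPM (2.96 ± 0.38, adjusted p = 2.3e-06). Gstm4 had no count in any control library and 1.16, 1.55 and 0.832 CPM in knockout cells, at least 24.8-fold higher against 3 counts over the control group. These genes belong to families of close copies, and no source used here says how reads shared between copies were counted.

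**Figure D1:**
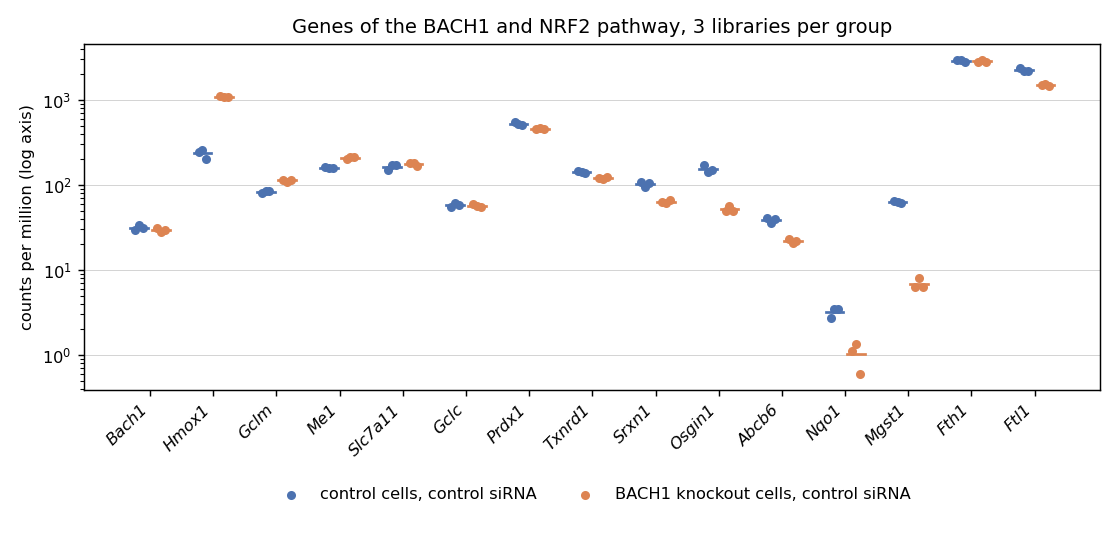
CPM on a log axis of 15 genes of the BACH1 and NRF2 pathway, 1 point per library and a line at the mean of the 3 libraries of each group. The knockout points of Hmox1 lie above and those of Osgin1, Srxn1, Nqo1 and Mgst1 below the control points, while the points of Bach1, Slc7a11, Gclc and Fth1 overlap.

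Genes of heme and iron handling changed in part from low levels. Of 14 genes of heme degradation, transport and binding, 5 rose (35.7%) and 4 fell (28.6%), against 24.2% and 26.2% of all genes. Pgrmc1, a heme-binding membrane protein, had no count in control cells and 7.15, 8.48 and 7.95 CPM in knockout cells, at least 166-fold higher. Hebp1, another heme-binding protein, had 2 counts over the control group, and its ratio of counts was 117 (exact 95% interval 32.1 to 973). Both were present in all 3 knockout libraries. Abcb6, a porphyrin transporter, fell from 41.4, 35.7 and 40.0 to 23, 21 and 22 CPM (−0.83 ± 0.09, adjusted p = 1.28e-07). Slc48a1, which carries heme out of lysosomes, fell from 284, 275 and 256 to 200.4, 198 and 192 CPM (−0.47 ± 0.05, adjusted p = 3.69e-07). Blvrb, a biliverdin reductase, fell by 0.48 ± 0.08 (adjusted p = 4.94e-05); Blvra, the other biliverdin reductase, was at −0.18 ± 0.08 (adjusted p = 0.0761). Neither biliverdin reductase gene, for the step after heme oxygenase, rose. Of 14 heme synthesis genes 3 rose (21.4%) and 4 fell (28.6%), near the shares of all genes. Fech, the enzyme that inserts iron, fell by 0.40 ± 0.07 (adjusted p = 4.37e-05).

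Among 22 iron genes tested 6 rose (27.3%) and 9 fell (40.9%), against 24.2% and 26.2% of all genes. Fth1, the ferritin heavy chain, was at 2972, 2963 and 2756 CPM in control and 2805, 2974 and 2818 CPM in knockout cells, with overlap (−0.02 ± 0.05, adjusted p = 0.825); it lies on chromosome 19 and was called lower with chromosome medians removed. Ftl1, the light chain, fell from 2361, 2162 and 2205 to 1503, 1559 and 1468 CPM (−0.57 ± 0.10, adjusted p = 6.86e-05). Both ferritin genes have many processed copies in the genome, so their counts are uncertain. Tfrc, the transferrin receptor, rose by 0.38 ± 0.09 (adjusted p = 0.00114), and Steap3, a ferrireductase of the transferrin cycle, rose from 0.545, 0.141 and 0.15 to 2.63, 2.15 and 1.89 CPM (2.94 ± 0.44, adjusted p = 1.3e-05). Transferrin itself, Trf, fell from 8.5, 8.75 and 9.12 to 2.89, 4.44 and 2.86 CPM (−1.37 ± 0.18, adjusted p = 2.68e-06). The mitochondrial iron importers both rose, Slc25a37 by 0.58 ± 0.07 (adjusted p = 1.2e-06) and Slc25a28 by 0.79 ± 0.06 (adjusted p = 3.96e-10). Slc40a1, the iron exporter, was near 1 CPM and fell by 0.94 ± 0.31 (adjusted p = 0.0148), a call that ended without replicate 1 of the control or replicate 2 or 3 of the knockout group.

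Interferon-stimulated genes fell almost throughout the list. Of 46 interferon-stimulated genes tested, 43 fell (93.5%, against 26.2% of all genes), 1 rose and 2 were not called; 39 fell at least 2-fold. Their median log2 fold change was −2.92, and it was −2.89 with chromosome medians removed; setting the 7 members with at most 3 counts in a group at their bound or ratio left it at −2.92. With Fem1b siRNA, in libraries that share the fit and filter but not the fold changes above, 42 of the 46 were called in the same direction, with a median of −2.57. Some members had almost no counts over the knockout group, such as Usp18 with 4, Oas3 with 6, Ddx60 with 5 and Trim30a with 0. Such members could pass the filter only through other libraries. The counts of 43 and 42 of the 46 are thus not independent of the filter. Some members with many counts in both groups also fell, such as Samd9l, from 4056 to 692 counts, and Lgals9, from 5482 to 1214. That the interferon genes were lower was known when the list was drawn up. The leukocyte marker sum given above was also lower in knockout cells. Nearly all of it was 1 gene, Cd68, with 518 counts over the control and 339 over the knockout group. Of the 11 markers 7 were at 0 in control cells. The part of leukocytes in the lower interferon-stimulated genes was not tested.

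The falls covered effectors of several kinds. Isg15, a ubiquitin-like modifier, was at 17.5, 18.2 and 19.6 CPM in control and 0.789, 1.35 and 0.924 CPM in knockout cells (−4.16 ± 0.24, adjusted p = 1.55e-11). Ifit1, which binds viral RNA caps, was at 11.7, 10.4 and 12.6 and 0.579, 0.599 and 0.416 CPM (−4.44 ± 0.21, adjusted p = 7.98e-13). Usp18, which removes ISG15 and dampens the receptor, was at 6.09, 7.39 and 7.32 and 0.0526, 0.0499 and 0.0924 CPM (−6.59 ± 0.34, adjusted p = 2.92e-12). In none of the 3 genes did a knockout library reach a control library. Oasl2, of the oligoadenylate synthetase family, fell from 18.9, 23.2 and 25.3 to 1.37, 0.998 and 1.06 CPM (−4.29 ± 0.20, adjusted p = 6.56e-13). Bst2, which tethers budding virus, fell from 79.3, 82.6 and 82.8 to 35.3, 39.8 and 35.9 CPM (−1.14 ± 0.09, adjusted p = 1.7e-09). Ddx60, a helicase, fell from 2.77, 3.11 and 2.86 to 0, 0.0998 and 0.139 CPM (−5.04 ± 0.42, adjusted p = 4.33e-09). Some members fell by less than 2-fold, such as Eif2ak2, the RNA-activated kinase PKR, by 0.45 ± 0.08 (adjusted p = 6.3e-05). Gbp3, a guanylate-binding protein, was at 1.5, 2.02 and 2.31 CPM in control cells and had 2 counts over the knockout group, a ratio of counts of 58.6 (exact 95% interval 15.9 to 489). Trim30a was at 0.863, 1.04 and 2.36 CPM in control cells and had no count in knockout cells, at least 28.7-fold lower. Ifitm1, a membrane protein that blocks viral entry, fell from 165, 163 and 189.6 to 5.21, 3.29 and 2.63 CPM (−5.55 ± 0.15, adjusted p = 1.23e-16), and its neighbour Ifitm3 from 15.1, 16.2 and 18.7 to 1.05, 1.35 and 0.832 CPM (−3.95 ± 0.17, adjusted p = 2.19e-13); these are close copies. The exception was Isg20, an exonuclease, which was at 70.0, 63.6 and 63.8 CPM in control and 96, 95.6 and 93.8 CPM in knockout cells and rose by 0.53 ± 0.11 (adjusted p = 0.000548). Lgals3bp (−0.14 ± 0.08, adjusted p = 0.177) and Parp12 (0.24 ± 0.33, adjusted p = 0.568) were not called.

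Along the pathway, the type I receptor chains and the kinases Jak1 and Tyk2 were not called, while most of the transcription factors and sensors tested fell. Of 30 receptors, kinases, factors and nucleic acid sensors, 2 rose and 18 fell. Ifnar1, a chain of the type I interferon receptor, was at 82.1, 89.5 and 90.0 CPM in control and 78.8, 79 and 83.4 CPM in knockout cells, with overlap (−0.12 ± 0.07, adjusted p = 0.152). The other chain, Ifnar2, was at −0.10 ± 0.07 (adjusted p = 0.301) and was called only without replicate 2 of the knockout group, and the kinases Jak1 and Tyk2 at −0.11 ± 0.06 (adjusted p = 0.106) and 0.11 ± 0.06 (adjusted p = 0.136). With all libraries these 4 genes were not called. Jak2, another kinase gene of the list, rose by 0.51 ± 0.08 (adjusted p = 2.11e-05), a call that ended with chromosome medians removed. It lies on chromosome 19.

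Stat2 and Irf9, factors that act together downstream of the type I interferon receptor, fell. Stat2 was at 24.1, 29.7 and 30.3 CPM in control and 18.3, 15.1 and 18.9 CPM in knockout cells (−0.68 ± 0.11, adjusted p = 2.53e-05). Irf9 was at 19.2, 20.3 and 20.6 and 12.3, 12.8 and 10.2 CPM (−0.77 ± 0.10, adjusted p = 3.5e-06). The knockout values lay below the control values for both. Irf7, the factor that amplifies type I interferon production, fell from 9.91, 12.7 and 12.9 to 0.789, 1.1 and 1.2 CPM (−3.5 ± 0.20, adjusted p = 1.38e-11), and Irf1 by 0.53 ± 0.06 (adjusted p = 6.06e-07). Irf3 was called higher (0.21 ± 0.07, adjusted p = 0.0186) with overlapping replicates, and the call ended when replicate 2 or 3 of either group was left out.

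Several sensors of nucleic acids and their adaptors fell. Tmem173, which encodes the DNA sensing adaptor STING, fell from 97.4, 104 and 104 to 16.5, 15.3 and 15.2 CPM (−2.7 ± 0.09, adjusted p = 3.76e-15). Ddx58, the RNA sensor RIG-I, fell from 23.9, 27.7 and 28.2 to 10.8, 9.13 and 9.19 CPM (−1.46 ± 0.11, adjusted p = 9.49e-10), and Ifih1, the sensor MDA5, from 4.18, 4.89 and 4.01 to 0.789, 1.05 and 0.924 CPM (−2.23 ± 0.22, adjusted p = 5.83e-08). Mavs, the adaptor of both RNA sensors, fell by 0.62 ± 0.06 (adjusted p = 1.2e-08). Dhx58, the third RIG-I-like helicase, fell from 6.0, 8.42 and 7.92 to 0.263, 0.948 and 0.508 CPM (−3.68 ± 0.27, adjusted p = 8.16e-10). Myd88, an adaptor of Toll-like receptors, was not called (0.06 ± 0.09, adjusted p = 0.61).

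Antigen presentation genes were lower or not called, with 1 exception. Of 18 genes of MHC class I and antigen processing, 10 fell (55.6%, against 26.2% of all genes), 1 rose and 7 were not called. Nlrc5, the activator of class I gene transcription, was at 15.5, 19.2 and 17.2 CPM in control and 0, 0.0998 and 0.0924 CPM in knockout cells, where 4 counts were left over the group (−7.91 ± 0.27, adjusted p = 3.73e-15). B2m, the class I light chain, fell from 751, 775 and 736 to 399, 414 and 399.5 CPM (−0.90 ± 0.06, adjusted p = 1.27e-10). Tap2, a chain of the peptide transporter, fell from 20.8, 22.4 and 22.5 to 5.63, 6.39 and 5.31 CPM (−1.92 ± 0.10, adjusted p = 6.89e-12). The activator lost nearly all its counts, while the light chain fell by less than 1 on the log2 scale. The class I heavy chains differed: H2-D1 fell from 223, 231 and 216 to 108, 126 and 105 CPM (−0.98 ± 0.06, adjusted p = 1.25e-10), while H2-K1 rose from 36.3, 35.5 and 35.5 to 52.6, 54.1 and 55.9 CPM (0.60 ± 0.10, adjusted p = 5.09e-05). Heavy chain genes are close copies, so their counts are uncertain. The tapasin gene Tapbp fell by 0.67 ± 0.05 (adjusted p = 1.66e-09), the peptide-trimming Erap1 by 0.68 ± 0.10 (adjusted p = 1.02e-05) and the immunoproteasome subunit gene Psmb10 by 0.44 ± 0.08 (adjusted p = 0.000138). Tap1, of the same transporter as Tap2, had 0 counts over the control and 6 over the knockout group. Psmb8 and Psmb9, also immunoproteasome subunit genes, had 0 counts in both groups. Tap1, Psmb8 and Psmb9 were under the filter and were not tested.

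Schlafen genes, many of which interferon induces, fell in 5 of 5 cases, against 26.2% of all genes. All 5 lie on chromosome 11. Slfn4, Slfn5, Slfn9 and Slfn10-ps had 2, 0, 0 and 8 counts over the knockout group. They could pass the filter only through other libraries, so the count of 5 is not independent of the filter. Slfn2 was at 85.9, 88 and 84.9 CPM in control and 3.95, 3.14 and 3.56 CPM in knockout cells (−4.6 ± 0.11, adjusted p = 1.45e-17). Slfn5 and Slfn9 had no count in knockout cells and were at least 20.4-fold and 14.8-fold lower. Of 9 inflammasome and gasdermin genes tested, 7 fell and 2 were not called; among those that fell were Casp12 at −1.98 ± 0.25 (adjusted p = 1.87e-06), Casp4 at −1.6 ± 0.31 (adjusted p = 0.000265) and Gsdmd, the pore-forming gasdermin, at −0.55 ± 0.06 (adjusted p = 4.3e-07).

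**Figure D2:**
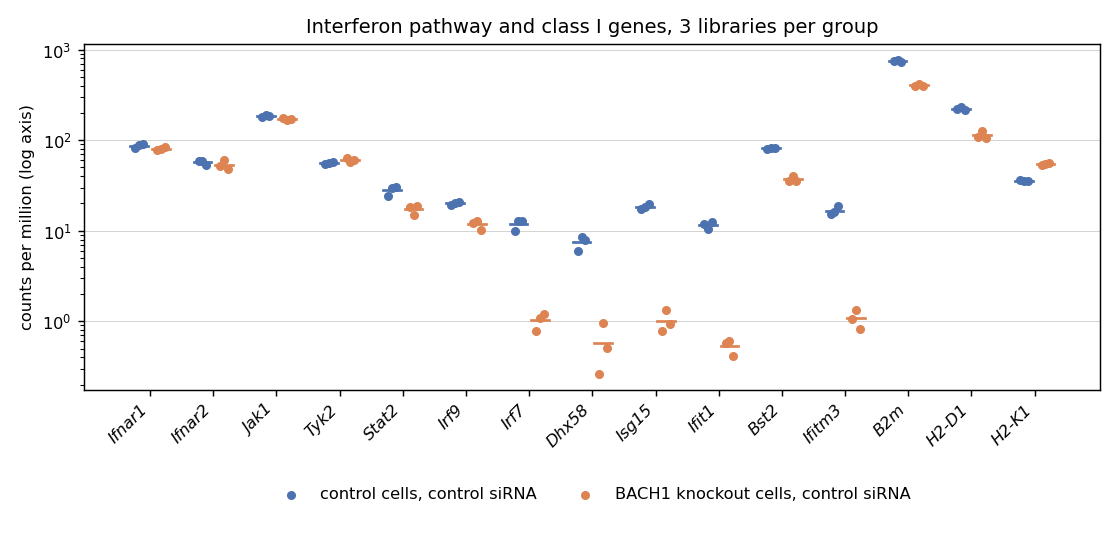
CPM on a log axis of 15 genes from the interferon receptor to class I antigen presentation, 1 point per library and a line at the mean of the 3 libraries of each group. The points of the receptor and kinase genes lie at like levels in both groups, those of Irf7, Dhx58, Isg15, Ifit1 and Ifitm3 are lower in knockout cells, and those of H2-K1 are higher.

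Chemokine genes changed in both directions, with interferon-inducible ones among those that fell. Of 22 chemokine, colony-stimulating factor and interleukin genes, 10 rose (45.5%) and 6 fell (27.3%), against 24.2% and 26.2% of all genes. Cxcl10, which attracts T cells, fell from 30.1, 29.8 and 43.6 to 3.05, 2.25 and 1.52 CPM (−3.93 ± 0.26, adjusted p = 1.09e-10), and Ccl5, another T cell attractant, from 24.9, 27.4 and 31.5 to 1.53, 1.6 and 1.43 CPM (−4.2 ± 0.19, adjusted p = 4.94e-13). Csf3, the granulocyte growth factor, fell from 5.54, 4.47 and 5.36 to 0.526, 1.1 and 0.97 CPM (−2.55 ± 0.24, adjusted p = 3.16e-08). Attractants of neutrophils and monocytes went both ways. Cxcl1, a neutrophil attractant, fell by 0.36 ± 0.10 (adjusted p = 0.00673), a call that ended without replicate 3 of the knockout group, and the chemokine gene Ccl9 from 17.9, 17.6 and 17.4 to 3.79, 3.44 and 3.19 CPM (−2.34 ± 0.12, adjusted p = 2.89e-12). Cxcl5, another neutrophil attractant, rose from 30.6, 30.6 and 34 to 106, 126 and 105 CPM (1.83 ± 0.10, adjusted p = 3.18e-12), and Cxcl2, with the same role, by 0.80 ± 0.19 (adjusted p = 0.00137). Ccl2, a monocyte attractant, rose from 9.95, 8.38 and 10.2 to 20.4, 28.4 and 20.2 CPM (1.27 ± 0.21, adjusted p = 3.73e-05), and Ccl7 and Ccl20 rose from under 1 CPM by 2.8 ± 0.37 and 3.56 ± 0.45 (adjusted p = 3.21e-06 and adjusted p = 1.84e-06). Of 18 NF-kB subunits and regulators 9 rose and 4 fell. Birc3, an apoptosis inhibitor induced by NF-kB, rose from 0, 0.141 and 0.15 to 5.89, 7.18 and 6.75 CPM (6.03 ± 0.43, adjusted p = 4.08e-10), and the feedback genes Nfkbiz and Tnfaip3 by 1.07 ± 0.08 (adjusted p = 4.39e-10) and 0.92 ± 0.06 (adjusted p = 2.72e-10).

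Several genes of the BMP branch of the TGF-beta family rose. Bmp2, a secreted ligand (chromosome 2, 133552159 to 133562896), was at 0.954, 0.471 and 0.752 CPM in control cells and 40.7, 38.3 and 43 CPM in knockout cells. The groups were far apart, and the difference was 55.4-fold (5.79 ± 0.14, adjusted p = 2.11e-17). Its relatives were not called: Bmp4 was at −0.12 ± 0.35 (adjusted p = 0.792) and Bmp7 at −0.13 ± 0.08 (adjusted p = 0.193). The Id genes are direct targets of BMP signalling and encode inhibitors of basic helix-loop-helix factors. Id3 rose from 17.6, 13.7 and 15.5 to 134, 152 and 139 CPM (3.18 ± 0.09, adjusted p = 3.29e-16). Id2 rose from 33.8, 34.3 and 31.8 to 149, 142 and 149 CPM (2.14 ± 0.07, adjusted p = 3.33e-15). Id1 rose from 75.8, 67.9 and 73.1 to 223, 241 and 227 CPM (1.67 ± 0.07, adjusted p = 2.99e-13). For all 3 genes the lowest knockout library was above the highest control library. The inhibitory SMAD genes, which BMP signalling also induces, rose as well, Smad6 from 8.45, 8.0 and 7.27 to 27.5, 27.1 and 27.2 CPM (1.78 ± 0.10, adjusted p = 7.79e-12) and Smad7 by 1.12 ± 0.11 (adjusted p = 4.07e-08). Smad9, a receptor-regulated SMAD of the BMP branch, rose from 0.273, 0 and 0 to 6.58, 4.79 and 4.39 CPM (5.7 ± 0.47, adjusted p = 3.57e-09). The secreted antagonists Fst and Grem1 rose from low levels, by 2.11 ± 0.31 (adjusted p = 1.31e-05) and 2.99 ± 0.50 (adjusted p = 5.45e-05). Genes of the TGF-beta branch went the other way in part: Tgfbr2, the type II receptor, fell by 0.64 ± 0.07 (adjusted p = 8.76e-08) and the ligand gene Tgfb2 by 0.62 ± 0.13 (adjusted p = 0.000538), while Tgfb1 rose by 0.40 ± 0.05 (adjusted p = 3.11e-06). Over the list of 23 genes 13 rose (56.5%) and 4 fell (17.4%), with a median of 0.27.

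Notch ligands were mostly higher, and receptors changed in both directions. Jag2, a membrane-bound ligand, rose from 2.0, 3.11 and 2.76 to 87.3, 83.9 and 88.7 CPM (5.05 ± 0.11, adjusted p = 5.5e-18). Jag1 rose from 102, 119 and 132 to 274, 270.2 and 279.5 CPM (1.23 ± 0.08, adjusted p = 5.19e-11), and Dll1 from 1.59, 1.27 and 1.9 to 7.47, 7.13 and 6.47 CPM (2.14 ± 0.19, adjusted p = 1.05e-08). All 3 ligands were higher in every knockout library. Among receptors, Notch3 rose from 0.0909, 0.0941 and 0.15 to 1.53, 0.898 and 1.99 CPM (3.66 ± 0.57, adjusted p = 1.93e-05) and Notch1 fell from 1.36, 0.941 and 1.0 to 0.263, 0.299 and 0.0924 CPM (−2.33 ± 0.46, adjusted p = 0.000266), both at low counts. The target gene Hey1 rose by 0.99 ± 0.19 (adjusted p = 0.000258), and Rbpj, the DNA-binding factor of the pathway, fell by 0.48 ± 0.06 (adjusted p = 3.18e-06). Of 14 Notch genes 7 rose and 4 fell.

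**Figure D3:**
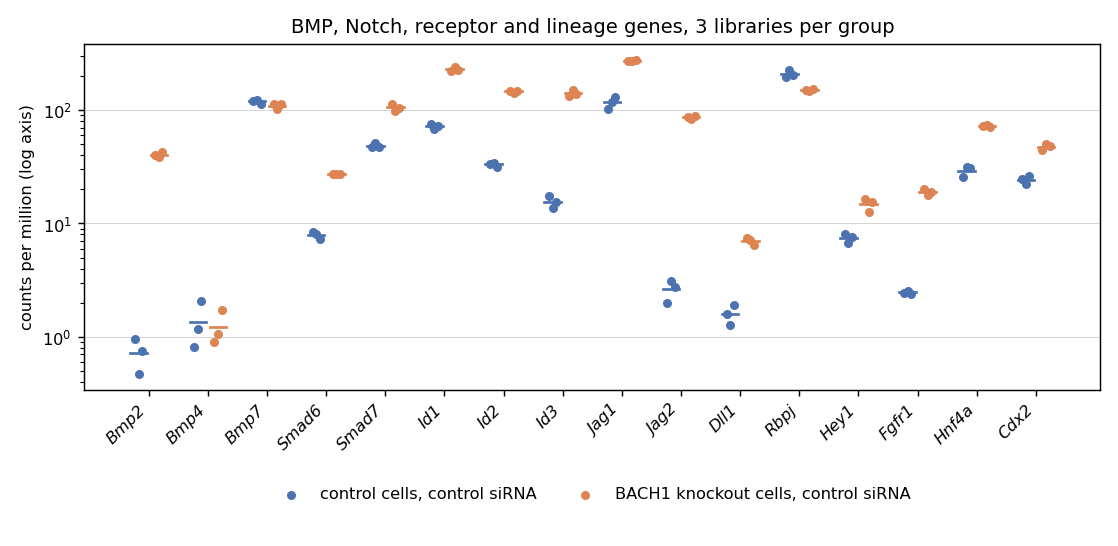
CPM on a log axis of 16 genes of the BMP and Notch pathways, a growth factor receptor and gut lineage factors, 1 point per library and a line at the mean of the 3 libraries of each group. Knockout points lie above control points for Bmp2, Smad6, Smad7, the Id genes, the Notch ligands, Hey1, Fgfr1, Hnf4a and Cdx2 and below them for Rbpj, while those of Bmp4 overlap.

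Tyrosine kinase genes were more often higher than lower, and some had few or no counts in control cells. Of 25 receptor tyrosine kinases, 14 rose (56.0%) and 5 fell. Egfr, the epidermal growth factor receptor, had no count in control cells and 7.79, 8.43 and 8.09 CPM in knockout cells, at least 171-fold higher. Ephb3, an ephrin receptor, had 1 count over the control group and 4.95, 3.94 and 5.13 CPM in knockout cells, a ratio of counts of 296 (exact 95% interval 52.7 to 11722). Fgfr1 rose from 2.45, 2.54 and 2.41 to 20.1, 17.8 and 18.8 CPM (2.93 ± 0.14, adjusted p = 5.53e-13) and Fgfr3 from 0.318, 0.235 and 0.251 to 2.42, 2.15 and 1.76 CPM (2.94 ± 0.38, adjusted p = 2.26e-06). These receptors belong to 3 families. Tyro3, a receptor for GAS6, fell from 68.1, 59.5 and 63.2 to 39.6, 39 and 40.2 CPM (−0.68 ± 0.07, adjusted p = 3.83e-08). Of 8 Src family kinases and their regulators 6 rose and 1 fell. Fyn (chromosome 10, 39369743 to 39565381) had no count in control cells and 43.5, 39.3 and 40.8 CPM in knockout cells, at least 868-fold higher. Src was the member that fell, from 280.4, 273 and 276 to 222, 214 and 221 CPM (−0.34 ± 0.05, adjusted p = 2.16e-05), and Lyn rose by 0.86 ± 0.13 (adjusted p = 1.24e-05).

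Gut and liver lineage factors, which KP tumours can express when lung identity is lost, were more often higher than lower in knockout cells. Of 14 tested, 8 rose (57.1%) and 1 fell, and the list of 20 summed to 421 to 439.9 CPM in control and 661 to 677 CPM in knockout cells. Gata4 had no count in control cells and 11.3, 10.7 and 11.3 CPM in knockout cells, at least 234-fold higher, and its relative Gata6 rose by 0.76 ± 0.08 (adjusted p = 6.37e-08). Hnf4a rose from 25.5, 31.4 and 30.6 to 72, 73.7 and 71.6 CPM (1.31 ± 0.10, adjusted p = 1.08e-09). Cdx2, the intestinal homeobox factor, rose from 24.6, 22.1 and 26.3 to 44.9, 49.8 and 48.2 CPM (0.97 ± 0.08, adjusted p = 7.05e-09). In these genes the groups did not overlap. Sox2, a foregut and stem cell factor, rose from 92.8, 98.7 and 84.1 to 198, 189 and 205 CPM (1.1 ± 0.14, adjusted p = 1.63e-06), and Cdh17, an intestinal cadherin, by 1.07 ± 0.07 (adjusted p = 7.4e-11). Sox9 was the member that fell, by 0.61 ± 0.07 (adjusted p = 3.01e-07).

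Epithelial junction genes changed in both directions, 10 of 23 higher (43.5%) and 8 lower (34.8%), against 24.2% and 26.2% of all genes. Cdh1, E-cadherin, rose from 309, 332 and 323 to 626, 679.7 and 629 CPM (1.0 ± 0.06, adjusted p = 2.71e-11). Among desmosomal genes, Pkp1 rose from 24.9, 32.7 and 27.1 to 158, 131 and 159 CPM (2.4 ± 0.17, adjusted p = 4.84e-10), Dsp from 0.273, 0.0471 and 0 to 2.89, 1.6 and 3.19 CPM (4.46 ± 0.48, adjusted p = 2.0e-07), and Dsg2, with no count in control cells, was at least 40.1-fold higher, while Jup and Pkp3 fell by 0.39 ± 0.05 (adjusted p = 1.84e-06) and 0.39 ± 0.14 (adjusted p = 0.0232); the call of Pkp3 ended without replicate 2 of the control or replicate 1 or 3 of the knockout group. Claudin genes were among those that fell, Cldn2 from 23.8, 28.6 and 25.9 to 4.58, 3.74 and 3.74 CPM (−2.7 ± 0.23, adjusted p = 7.87e-09) and Cldn4 by 2.27 ± 0.28 (adjusted p = 1.47e-06). Of 14 keratins and small proline-rich proteins 9 fell and 2 rose. Krt7 fell from 1727, 1783 and 1687 to 435, 479 and 424 CPM (−1.96 ± 0.06, adjusted p = 2.04e-16), and Krt18, a simple epithelial keratin gene, by 0.33 ± 0.06 (adjusted p = 4.45e-05). Its partner Krt8 and Krt19 were not called (−0.07 ± 0.06, adjusted p = 0.355, and −0.04 ± 0.06, adjusted p = 0.601). Sprr1a, a cornified envelope protein, fell from 236, 261 and 283 to 11.4, 8.63 and 10.6 CPM (−4.67 ± 0.11, adjusted p = 1.27e-17); the Sprr genes are close copies, so these counts are uncertain. Krt23 was an exception, at 6.68, 6.82 and 5.86 CPM in control and 71.3, 76.7 and 68.4 CPM in knockout cells (3.48 ± 0.11, adjusted p = 1.53e-15). Of 17 mesenchymal genes 6 rose (35.3%) and 5 fell (29.4%). Twist1 was among those that rose (2.89 ± 0.17, adjusted p = 2.77e-11) and Prrx1 among those that fell (−1.1 ± 0.07, adjusted p = 5.53e-11).

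Genes of collagen folding and collagen chains did not move together. Of 24 genes of collagen folding and crosslinking, 10 rose (41.7%), 6 fell (25.0%) and 8 were not called. Serpinh1, the collagen chaperone HSP47, was at 3.5, 3.77 and 2.76 CPM in control cells and 231, 239.6 and 225 CPM in knockout cells, 69.1-fold higher (6.11 ± 0.09, adjusted p = 1.04e-20). Plod2, a lysyl hydroxylase, rose by 1.09 ± 0.08 (adjusted p = 8.45e-10). Of 17 collagen chains, however, 8 fell and 2 rose, and Col1a1 fell from 21.4, 22.5 and 23.5 to 9.42, 7.63 and 8.13 CPM (−1.42 ± 0.10, adjusted p = 5.24e-10). Pcolce, which enhances procollagen cleavage, fell from 344, 317 and 316 to 68.3, 71.8 and 64.2 CPM (−2.26 ± 0.06, adjusted p = 1.14e-16). Col1a1 also made up most of the summed fibroblast markers given above, and Pdgfra, another of these markers, was called higher (2.73 ± 0.62, adjusted p = 0.00102) from 5 counts over the control group to 34 over the knockout group.

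Some genes had counts in 1 group and almost none in the other. Of the 13312 genes tested, 165 had at most 3 counts over the control group, 78 of them none, and more than 3 in knockout cells. Of these, 159 were called. In the reverse direction there were 45 such genes, 16 of them without a count in knockout cells, and 41 were called. The direction of these genes follows from how they were chosen. Of the 78 genes, 53 were at 1 CPM or more in knockout cells, against 4 of the 16 in control cells. The 165 genes lay on 20 chromosomes and the 45 on 16. Beyond Fyn, Gata4, Egfr and Pgrmc1, the transcription factor genes Sox12 and Zic2 were at 27.4, 23.9 and 23.6 and 12.2, 10.9 and 11.2 CPM in knockout cells, at least 525-fold and 241-fold higher. Others were Acsl6, a long-chain acyl-CoA synthetase, at least 399-fold, the kinase Stk39 at least 287-fold, the Src substrate Cdcp1 at least 279-fold and the mitochondrial nucleotide kinase Nme4 at least 192-fold higher. Among the genes without a count in knockout cells, the neuronal membrane protein Slitrk5 was at least 27.5-fold and the hepcidin-regulating protease Tmprss6 at least 13.2-fold lower. Of the 78 genes without a count in control cells, 49 were also without one in control cells given Fem1b siRNA. For the 16 genes without a count in knockout cells, 5 were also without one in knockout cells given Fem1b siRNA. Acsl6 had more than 3 counts in control cells given Fem1b siRNA, and Tmprss6 had more than 3 in knockout cells given it.

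Further large changes by the naming rule were in a receptor phosphatase, a matrix protein and a channel. Ptpru, a receptor tyrosine phosphatase, rose from 1.27, 0.80 and 0.802 to 55.4, 52.2 and 56.6 CPM (5.82 ± 0.13, adjusted p = 1.04e-17), and the matrix protein gene Emilin2 from 1.05, 0.941 and 0.902 to 29.7, 32.4 and 28.9 CPM (4.96 ± 0.16, adjusted p = 1.53e-15). Aqp8, a water and hydrogen peroxide channel, fell from 22.3, 23.5 and 19.4 to 0.0526, 0.249 and 0.37 CPM (−6.52 ± 0.24, adjusted p = 1.38e-14). Macc1, a regulator of the MET receptor gene in colon cancer, fell from 15.5, 15.6 and 16.5 to 0.526, 0.349 and 0.739 CPM (−4.85 ± 0.21, adjusted p = 2.44e-13). Tmem176a and Tmem176b, overlapping neighbours, fell by 4.33 ± 0.12 and 4.46 ± 0.10 (adjusted p = 1.23e-16 and adjusted p = 1.04e-17).

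Ferroptosis genes were called on both sides. Of 35 defence genes 9 rose (25.7%) and 12 fell (34.3%), against 24.2% and 26.2% of all genes. Their median was −0.01, and it was −0.11 with chromosome medians removed and 0.11 with Fem1b siRNA (16 higher, 8 lower). Of 22 promoting genes 7 rose (31.8%) and 4 fell (18.2%), with a median of 0.02. Gpx4, which reduces lipid peroxides, was at 46.3, 43.5 and 43.1 CPM in control and 48.5, 48.4 and 48 CPM in knockout cells (0.12 ± 0.08, adjusted p = 0.226); it was called only in the fit to the 6 libraries. Cth, which makes cysteine from cystathionine, rose from 6.13, 8.71 and 5.96 to 20.8, 22.2 and 19.2 CPM (1.58 ± 0.15, adjusted p = 3.92e-08). Acsl3, which activates monounsaturated fatty acids, rose by 0.47 ± 0.06 (adjusted p = 1.69e-06), while Acsl4, which activates polyunsaturated ones, fell by 0.30 ± 0.08 (adjusted p = 0.00296). Ptgs2, a cyclooxygenase gene used as a ferroptosis marker, fell from 406, 449 and 526 to 272, 276 and 277 CPM (−0.74 ± 0.09, adjusted p = 1.01e-06).

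**Figure D4:**
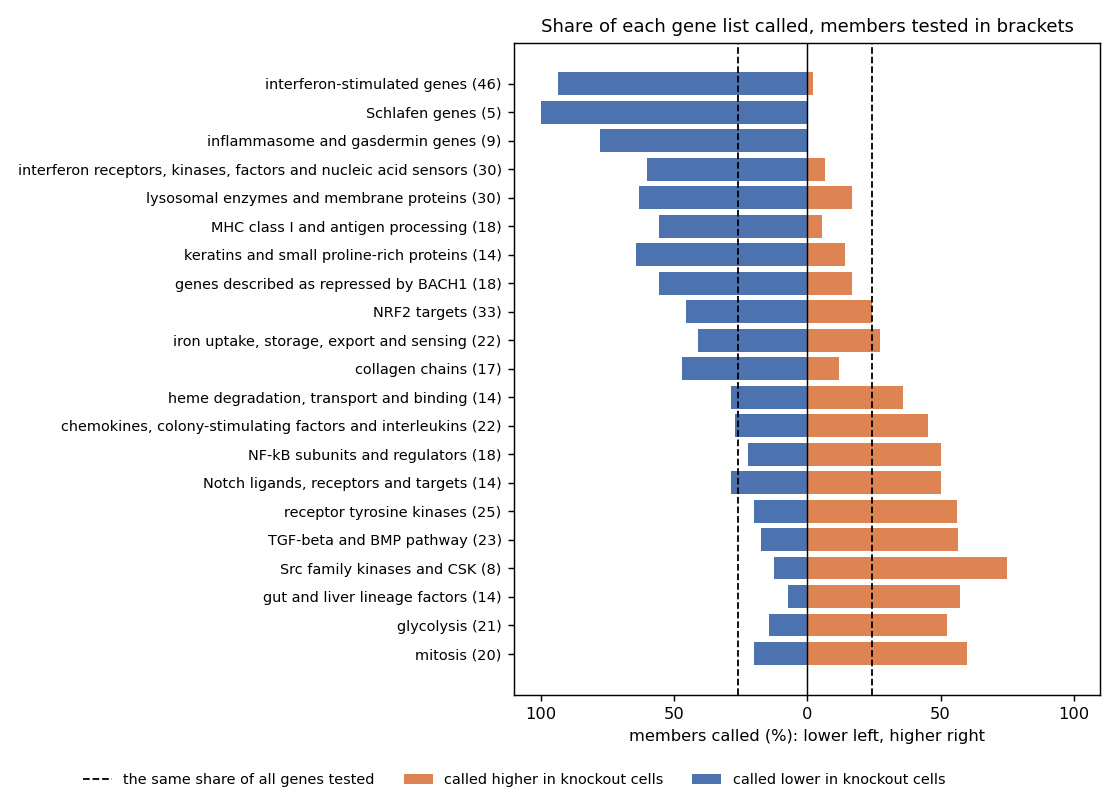
Share of the tested members of 21 gene lists called higher (right, orange) or lower (left, blue) in knockout cells, in percent; dashed lines mark the shares over all genes, 24.2% higher and 26.2% lower. The interferon-stimulated and Schlafen lists reach 93.5% and 100% lower, and the Src family, mitosis, gut lineage, TGF-beta and BMP and receptor tyrosine kinase lists lie at 56.0% to 75.0% higher. Some lists, among them the interferon-stimulated and Schlafen lists, hold members with few or no counts in a group, which passed the filter through other libraries.

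The 6 libraries with Fem1b siRNA gave a second comparison of the same 2 lines. They entered the shared fit, its estimate of spread and its filter, but not the fold changes above. There 7255 genes were called (54.5%). Of the 6708 genes called under control siRNA, 4955 were called in the same direction (73.9%; 68.3% of the 7255) and 69 in the opposite one. Of the 715 genes at least 2-fold higher, 633 were called higher again (88.5%), and of the 537 at least 2-fold lower, 461 were called lower again (85.8%). The sign was the same for 1225 of the 1252 (97.8%). Since the lines are the same, this repeats the libraries and not the knockout. The size of the difference changed with the siRNA for 805 genes (interaction, 6.05%), 137 of them among the 1252. Hmox1 was at 1.69 ± 0.16 with Fem1b siRNA, Bmp2 at 5.0 ± 0.13, Jag2 at 3.91 ± 0.10, Serpinh1 at 6.3 ± 0.09, Isg15 at −3.56 ± 0.20 and Nlrc5 at −6.28 ± 0.22.

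**Figure D5:**
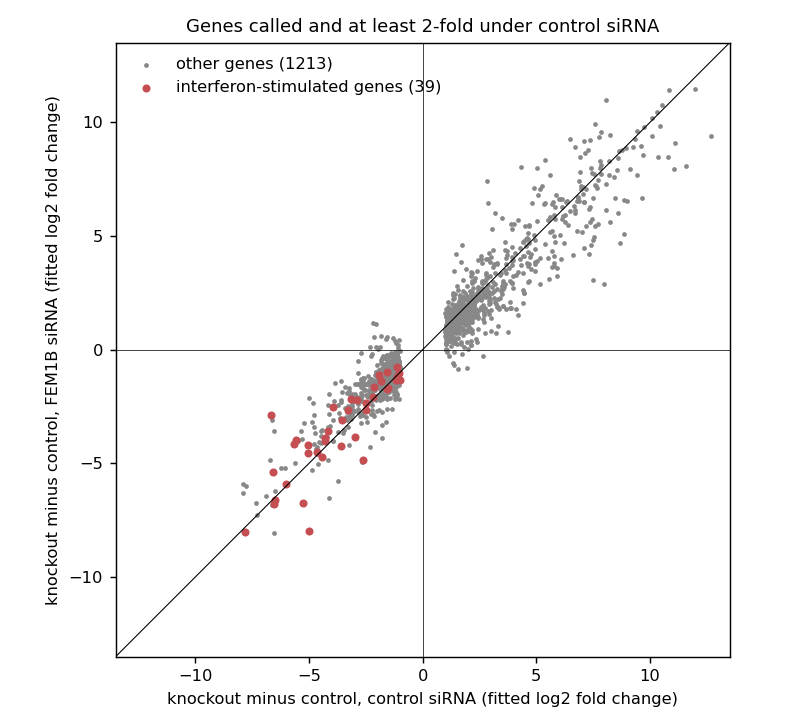
Fitted log2 difference between knockout and control cells under control siRNA (x axis) and under Fem1b siRNA (y axis) for the 1252 genes called and at least 2-fold under control siRNA; the line marks equal values and red points are the 39 interferon-stimulated genes among them. Points lie along the line, with 1225 of the same sign; the most extreme fitted values belong to genes with few or no counts in a group and depend on the fit's prior count.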

How the data were processed

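Raw whole-number counts, 1 row per gene symbol, were deposited for 12 libraries in 4 groups of 3. Per the submitters' processing notes the tools were Subread, featureCounts 1.6.4, SAMtools 1.9 and DESeq2 1.26.0, and the build was mm10; no source used here gives the strand setting or annotation of the counting. Genes that overlap or have near-identical copies are therefore uncertain, such as ferritin, Gapdh, Ifit, Ifitm, Oas, Schlafen, Sprr, H2, Gst and Tmem176 genes.

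Genes with at least 10 counts in at least 3 libraries were kept (13312 of 24421; 6056 had no count at all). Counts were scaled by TMM factors (0.989 to 1.01) and tested by the two-sided quasi-likelihood test of edgeR 4.0.16 (R 4.3.3) in 1 fit of all 12 libraries with a mean per group and 8 residual degrees of freedom. Calls are genes whose p, adjusted by Benjamini-Hochberg over all genes kept, was under 0.05, and every adjusted p in the text is from this fit. The procedure was tested on simulated counts. CPM are relative to the library total times its TMM factor; 1 count was worth 0.0454 to 0.0526 CPM in the 6 libraries compared. Each standard error is the log2 fold change over the root of its F statistic. Against a group without counts the fold is a lower bound from 3 counts over the group; with 1 to 3 counts it is a ratio of counts with an exact 95% interval. Both cover counting error only. No replicate pair held identical values (chi-square per degree of freedom 2.54 to 14.1).

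The members and the 58 gene lists were chosen with earlier results of these data known. The rule for named genes took a fixed set of pathway genes, the 12 largest rises and 12 largest falls with a mean log2 CPM of 3 or more and no overlap, the 8 genes per direction with the highest level against a group without counts, and up to 4 members of each list with the smallest p (any member in lists of at most 12). Not all of these are printed, and some items are not reported here. Named after their values were seen were Aldh3a1, Blvra, Blvrb, Bmp4, Bmp7, Bst2, Cbr1, Ccl2, Ccl20, Ccl7, Cldn4, Csf3, Cxcl1, Cxcl2, Ddx58, Ddx60, Dsg2, Dsp, Eif2ak2, Erap1, Fgfr3, Fst, Gata6, Gbp3, Grem1, Gstm4, H2-K1, Hey1, Ifih1, Ifit1, Ifitm3, Ifnar1, Ifnar2, Irf1, Irf3, Irf9, Isg20, Jak1, Jak2, Jup, Krt18, Krt19, Krt8, Lgals3bp, Mavs, Me1, Myd88, Notch1, Notch3, Parp12, Pkp3, Prdx1, Psmb10, Smad6, Smad7, Smad9, Stat2, Steap3, Tapbp, Tfrc, Tgfb1, Tgfb2, Tgfbr2, Trf, Tyk2 and Usp18. Nfkbie, Psmb8, Psmb9, Tap1 and Traf1 were also named after their values were seen. Gene positions and promoter windows are from RefSeq on GRCm38.p6, and 13248 genes had a chromosome. The alternatives were DESeq2 1.42.0, RLE factors, other filters, a fit to the 6 libraries, a replicate block, removal of chromosome medians and leaving out each library.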

Additional observations from a re-analysis of the deposited data

Results flagged for a closer look

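For 2 of the 20 genes of the fixed pathway set the knockout difference was not the same under both siRNAs, by the interaction test in edgeR over all 13312 genes. Gclm rose by 0.44 ± 0.06 under control siRNA and by 0.78 ± 0.06 under Fem1b siRNA, where it was at 77.7, 81.2 and 87.5 CPM in control cells and 133, 154 and 136 CPM in knockout cells. The difference was 0.33 ± 0.09 on the log2 scale (adjusted p = 0.032). It no longer passed when replicate 2 or 3 of the control group or any 1 replicate of the knockout group was left out. Fth1 was not called under control siRNA, at −0.02 ± 0.05, and rose by 0.64 ± 0.05 under Fem1b siRNA. Its levels there were 1912, 1789 and 1939 CPM in control cells and 3062, 2761 and 2938 CPM in knockout cells, and the difference was 0.65 ± 0.08 (adjusted p = 5.98e-05). The counts of Fth1 are uncertain because of its processed copies.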

How the results depend on the processing

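Under the 13 alternatives the number of genes called stayed within 1.5 times the 6708 reported, from 5784 with chromosome medians removed to 7299 in the fit to the 6 libraries compared. DESeq2 called 6607 genes, and leaving out single libraries gave 5863 to 6143. Of 391 named genes compared in this way, 329 had the same call under every alternative and 62 did not. Signs reversed for 5 genes, all with chromosome medians removed: Keap1 was then at −0.18, Cul2 at 0.035, Fbxo22 at −0.20, Acsl5 at −0.10 and Ndufv1 at −0.062. Of the 55 list medians 14 changed sign in at least 1 alternative, none of them above 0.15 in absolute value. The number of genes of the fixed set whose knockout difference changed with the siRNA was 2 in the fit as reported, 5 without a filter on low counts, and 1 to 2 when single libraries were left out.

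The replicate numbers are shared by the groups but did not pair the samples: same-numbered libraries had correlations of deviations of −0.19, −0.27 and 0.09 under control siRNA. Of the control libraries, replicate 3 alone correlated best with its own number. With a replicate block 6493 genes were called, 3134 higher and 3359 lower. At this depth 1 count is about 0.05 CPM, so that changes in genes below 1 CPM rest on few counts. With 3 libraries from 1 line per genotype, the spread between independent knockout lines was not measured.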

Other observations

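Further gene groups differed between the cells under control siRNA. Of 30 lysosomal enzymes and membrane proteins, 19 were called lower and 5 higher (63.3% and 16.7%, against 26.2% and 24.2% of all genes), with a median of −0.16. The protease gene Ctsl fell from 772, 770.0 and 760.5 to 512, 504 and 507 CPM (−0.60 ± 0.05, adjusted p = 4.99e-09) and Gaa, the glycogen-degrading enzyme, from 241, 242 and 242 to 159, 155 and 152 CPM (−0.64 ± 0.05, adjusted p = 1.37e-09). Ctsf, another cathepsin, went the other way, from 0.0454, 0.188 and 0.0501 to 13, 12.6 and 12.3 CPM (6.97 ± 0.30, adjusted p = 1.3e-13). Of 26 proteasome genes 10 fell and 2 rose, each by less than 2-fold, among them Psmc1 at −0.42 ± 0.06 (adjusted p = 1.25e-05).

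Mitosis and glycolysis genes were more often called higher than lower. The glycolysis median was 0.25, and 0.11 with chromosome medians removed. For mitosis it was 0.21, and 0.22 with chromosome medians removed. Of 20 mitosis genes 12 rose and 4 fell, with the kinesin Kif11 at 0.75 ± 0.08 (adjusted p = 2.0e-07) and Cdk1 at 0.50 ± 0.08 (adjusted p = 1.37e-05), while of 23 replication genes 4 rose, 1 fell and 18 were not called. Of 21 glycolysis genes 11 rose and 3 fell; Aldoc rose by 0.63 ± 0.09 (adjusted p = 5.21e-06) and Pfkm, a phosphofructokinase, fell by 0.60 ± 0.05 (adjusted p = 5.72e-09). With Fem1b siRNA the counts were 7 higher and 7 lower for mitosis and 4 higher and 6 lower for glycolysis. The difference between the siRNAs was not tested for these lists.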
